A study of Homo sapiens with 18 samples.

Results

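Expression of 8 genes for class II antigen presentation was measured by RNA-seq in 18 libraries of TNBC cells: HLA-DRA, HLA-DRB1, HLA-DMA, HLA-DMB, CD74, CIITA, IFI30 and CTSS. The genes were chosen by name, whether or not they were expressed, and all 8 were listed in each of the 3 tables, which together hold 25721 gene symbols. BT-549 and MDA-MB-436 are human breast cancer lines without hormone receptors. BT-549 cells carried a stable hairpin RNA, shPBRM1 or shIRF1, and each was compared with its own group of BT-549 control cells. The paper describes BT-549 cells with a control shRNA (CshRNA). The column names of the IRF1 controls give a control shRNA, and those of the PBRM1 controls give no hairpin. MDA-MB-436 cells carried the inducible tet-MUC1shRNA and received either doxycycline (DOX, 500 ng/ml) or 0.1% DMSO vehicle. Every line was puromycin resistant, and each of the 6 groups held 3 libraries from triplicate cultures. The labels give 1 hairpin name for each target, and no DOX-treated cells with a control hairpin were analysed here, so that effects of DOX and of MUC1 silencing cannot be told apart.

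MHC class II molecules present peptides from endosomes and lysosomes to CD4+ T cells and are made mainly by dendritic cells, macrophages and B cells. Many other cell types produce them after exposure to IFN-gamma, which switches on CIITA through factors that include IRF1. The CIITA protein does not bind DNA itself but is recruited to class II promoters by factors that sit on the X and Y boxes. HLA-DRA and HLA-DRB1 encode the chains of HLA-DR. CD74, the invariant chain, guides new class II molecules to endosomes and blocks their groove, CTSS (cathepsin S) trims CD74 to a short remnant, and HLA-DM, encoded by HLA-DMA and HLA-DMB, exchanges that remnant for peptide. IFI30 is the lysosomal thiol reductase GILT, which opens disulfide bonds of antigens before they are cut.

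All 8 are protein-coding genes in GENCODE release 29 (GRCh38). HLA-DRA (ENSG00000204287.13) lies at chr6:32439842-32445046 on the plus strand and HLA-DRB1 (ENSG00000196126.11) at chr6:32578769-32589848 on the minus strand. HLA-DMB (ENSG00000242574.8, chr6:32934629-32941070) and HLA-DMA (ENSG00000204257.14, chr6:32948613-32969094) are neighbours on the minus strand and share the annotated gene AL645941.2, and the HLA-DMA annotation also runs opposite to BRD2. CD74 (ENSG00000019582.14, chr5:150401637-150412929) and CTSS (ENSG00000163131.10, chr1:150730196-150765957) are on the minus strand and overlap no other annotated gene. CIITA (ENSG00000179583.19, chr16:10866222-10943021, plus strand) overlaps AC133065.3 on its own strand and AC133065.1 and DEXI on the opposite one, and IFI30 (ENSG00000216490.3, chr19:18173162-18178117, plus strand) overlaps AC007192.1 on its own strand. The library kit preserves strand, but whether the counting used it is not given in the sources used here, so reads of overlapping genes may be mixed. HLA-DRB1 also has near-identical paralogs, and its low values are uncertain for that reason.

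Upstream sequences are shown because class II genes are known to be controlled through short boxes just before their start. RefSeq windows (GRCh38.p14, 250 bases before to 50 after the start) matched 5 of the 8 genes, and HLA-DRA, CIITA and CTSS had no entry. The RefSeq starts of HLA-DMA, HLA-DMB, CD74 and IFI30 lie inside the spans given above, since GENCODE also annotates transcripts that start further upstream. The last 200 bases before the start are printed 5' to 3' on the gene's strand. They correspond to chr6:32589849-32590048 (minus) for HLA-DRB1, chr6:32953098-32953297 (minus) for HLA-DMA, chr6:32941029-32941228 (minus) for HLA-DMB, chr5:150412911-150413110 (minus) for CD74 and chr19:18173613-18173812 (plus) for IFI30. Capitals mark CCAAT on either strand, the core of the Y box, and TGATGA on either strand.
HLA-DRB1: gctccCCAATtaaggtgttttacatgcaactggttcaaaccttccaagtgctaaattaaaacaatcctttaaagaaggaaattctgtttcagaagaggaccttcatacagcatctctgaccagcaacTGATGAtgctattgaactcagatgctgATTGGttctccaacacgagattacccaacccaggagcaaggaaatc
HLA-DMA: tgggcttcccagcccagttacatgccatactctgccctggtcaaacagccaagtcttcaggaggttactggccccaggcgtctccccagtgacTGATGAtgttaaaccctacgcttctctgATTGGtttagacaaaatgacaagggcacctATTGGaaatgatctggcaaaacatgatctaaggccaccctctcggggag
HLA-DMB: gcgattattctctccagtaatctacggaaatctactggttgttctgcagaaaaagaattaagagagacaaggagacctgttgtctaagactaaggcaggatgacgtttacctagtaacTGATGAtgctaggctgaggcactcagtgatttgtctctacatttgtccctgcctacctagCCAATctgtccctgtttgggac
CD74: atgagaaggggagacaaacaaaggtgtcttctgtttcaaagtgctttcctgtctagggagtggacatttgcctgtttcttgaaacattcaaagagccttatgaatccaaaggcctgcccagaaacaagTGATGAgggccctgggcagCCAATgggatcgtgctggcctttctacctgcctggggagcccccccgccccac
IFI30: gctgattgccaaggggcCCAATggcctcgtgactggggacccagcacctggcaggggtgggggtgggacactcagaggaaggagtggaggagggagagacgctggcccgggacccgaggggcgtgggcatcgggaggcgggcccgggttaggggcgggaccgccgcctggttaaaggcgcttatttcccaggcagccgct
Over the full windows, CCAAT was found in 5 of 5 and in 34.6% of all 35116 windows of the same length. TGATGA, a string picked after these windows had been read, was found in HLA-DRB1, HLA-DMA, HLA-DMB and CD74, where it began at positions -73, -107, -82 and -72, and not in IFI30, against 10.9% of all windows. An element core bound by IRF proteins (GAAA, 2 bases of any kind, GAAA) was matched in 0 of the 5 windows and 3.57% of all. These matches are descriptions of letters and say nothing of binding.

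The deposited values were TPM, a length-corrected abundance scaled to a fixed total. Short noncoding RNAs made up 75.7% to 79.2% (PBRM1 experiment), 84.8% to 88.5% (IRF1) and 12.1% to 15.2% (MUC1) of this total, so that TPM is not comparable between experiments. Whole reads per library were also worked back from TPM and the authors' mean normalized counts. The libraries then held 20 to 36.2 M reads in genes (PBRM1), 29.5 to 86.4 M (IRF1) and 9.24 to 13.8 M (MUC1). Of these reads, short noncoding RNAs made up only 9.03% to 11.1% (PBRM1), 3.67% to 4.88% (IRF1) and 0.26% to 0.327% (MUC1). PBRM1 decreased from 11.9 ± 1.02 to 2.96 ± 0.266 TPM in BT-549/PBRM1shRNA cells (SD, n = 3), IRF1 from 4.75 ± 0.410 to 1.17 ± 0.137 TPM in BT-549/IRF1shRNA cells and MUC1, a transmembrane mucin, from 5.63 ± 0.702 to 3.03 ± 0.539 TPM in DOX-treated MDA-MB-436 cells, with no overlap of libraries in any of the 3. ESR1 and PGR, the hormone receptors, had group means of at most 0.0643 TPM. Of 16 leukocyte markers, 1, 1 and 3 passed the filter in the PBRM1, IRF1 and MUC1 tables, and CD3E, MS4A1 and CLEC9A were at 0 TPM in every library. The summed TPM of the 16 was 31.2 to 35.7 in control and 12.6 to 13.9 in PBRM1shRNA libraries, 8.32 to 9.44 and 6.03 to 6.97 in the IRF1 experiment and 110 to 117.2 and 106.4 to 118.6 in the MUC1 experiment, nearly all of it CD68, a lysosomal membrane glycoprotein that is not restricted to leukocytes. The sum therefore says little of the other markers, of which several moved by reads. In the PBRM1 experiment 1 of 6 markers tested on reads rose and 3 fell, and in the IRF1 experiment 2 of 8 rose and 2 fell. Of the 2 that rose in the IRF1 experiment, LYZ met the minimum of reads only through its silenced libraries. In the MUC1 experiment 3 of 7 rose and 2 fell. Of all genes tested on reads, 5069 rose and 5174 fell of 15246 (PBRM1), 4805 and 5007 of 16854 (IRF1) and 3874 and 3862 of 15074 (MUC1). The part of these markers in the results below was not tested.

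The 8 genes spanned a wide range of levels within BT-549 control cells. In the PBRM1 experiment IFI30 stood first with 37.0 ± 2.44 TPM, above 96% of listed genes, followed by CD74 (0.910 ± 0.222 TPM), CIITA (0.221 ± 0.0321 TPM), CTSS (0.217 ± 0.0346 TPM), HLA-DMA (0.0767 ± 0.0203 TPM), HLA-DMB (0.0129 ± 0.0149 TPM), HLA-DRA (0.0106 ± 0.00991 TPM) and HLA-DRB1 (0.00609 ± 0.00739 TPM). The libraries of CIITA and CTSS overlapped, as did those of HLA-DMB, HLA-DRA and HLA-DRB1, and the other neighbours in this order did not. In the IRF1 experiment the control cells showed nearly the same order, with IFI30 at 13.7 ± 0.904 TPM, CD74 at 0.273 ± 0.0664 TPM, CIITA at 0.239 ± 0.0593 TPM and CTSS at 0.116 ± 0.0308 TPM. HLA-DMA (0.0188 ± 0.00221 TPM), HLA-DRA (0.00860 ± 0.00223 TPM), HLA-DMB (0.00346 ± 0.000852 TPM) and HLA-DRB1 (0.00286 ± 0.00104 TPM) followed, and overlaps between neighbours were seen for CD74 with CIITA and for HLA-DMB with HLA-DRB1.

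MDA-MB-436 cells differed from this order. In vehicle-treated cells IFI30 was again first with 70.2 ± 2.48 TPM, above 90.7% of listed genes, but HLA-DMA (1.14 ± 0.125 TPM) and CTSS (0.720 ± 0.0461 TPM) came next, and HLA-DMB reached 0.0949 ± 0.0402 TPM. CIITA, HLA-DRA and HLA-DRB1 had 0 reads in each of the 6 libraries, which allows up to 3 reads per library, or 0.217 RPM (reads per 1000000 reads in genes) in the deepest and 0.325 RPM in the shallowest. CD74 had 1 read in vehicle replicate 1 and 0 reads in the other 5 libraries. Such limits cover counting error only. The difference in these levels between the lines was not tested, since the tables were normalized separately.

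**Figure D1:**
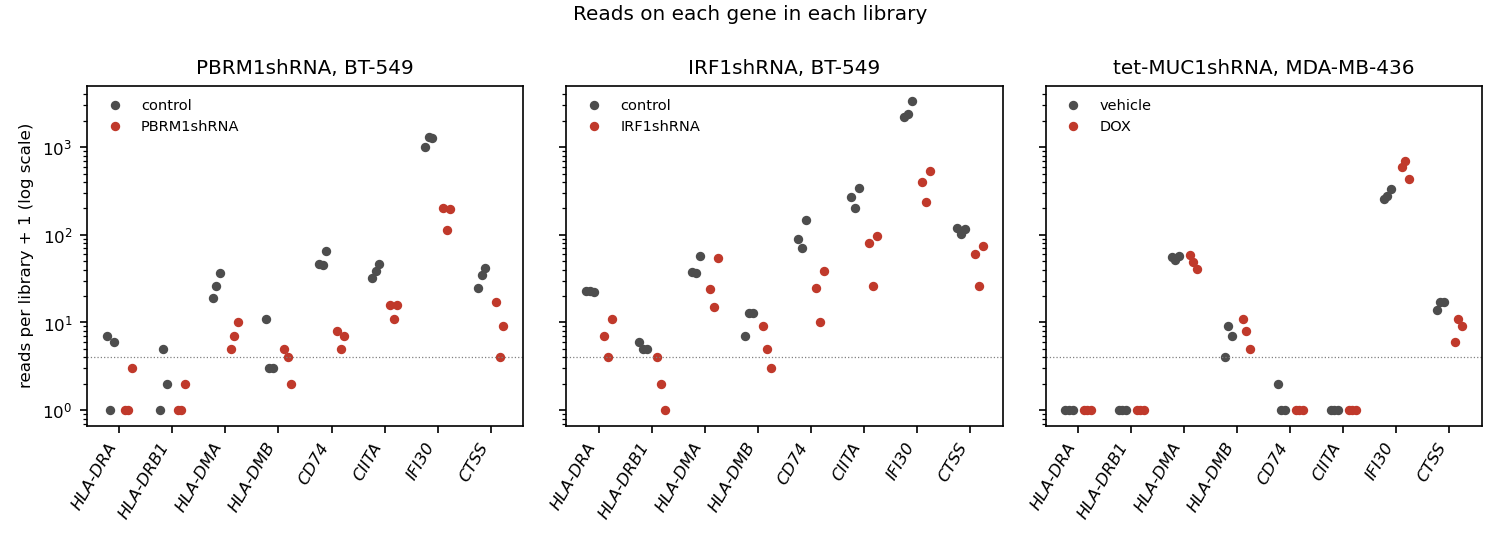
Reads on each of the 8 genes in each library, as reads + 1 on a log scale and not corrected for depth, in 3 panels for the PBRM1, IRF1 and MUC1 experiments. Points are libraries (control or vehicle in grey, silenced in red), and the dotted line marks 3 reads. IFI30 holds the most reads in every panel (112 to 3331 per library), and HLA-DRA, HLA-DRB1 and CIITA lie at 0 in all 6 MDA-MB-436 libraries.

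The first comparison asked how expression of these genes changes when PBRM1, a subunit of the PBAF chromatin remodeling complex, is silenced in BT-549 cells. IFI30 decreased 8.86-fold, and CIITA, CD74, HLA-DMA and CTSS were lower in all 3 PBRM1shRNA libraries than in any control library. The 3 remaining genes, HLA-DRA, HLA-DRB1 and HLA-DMB, had 10 reads or fewer in every library, with overlapping groups. IFI30 alone reached 1 TPM in at least 3 libraries, the filter for the test on log2(TPM + 1), and it was called lower (adjusted p under 0.05 and log2 fold under -1), as were 3.86% of the 10639 genes tested. Among the 7 genes under the filter, groups did not overlap for 4, all lower, against 34% of the 6394 genes under the filter with TPM above 0 in at least 3 libraries. An exact permutation test of 3 against 3 libraries cannot go below a two-sided p of 0.1, and each of the 4 reached that value.

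CIITA, the transactivator, had 31, 38 and 46 reads in control libraries a, b and c and 15, 10 and 15 reads in PBRM1shRNA libraries 1, 2 and 3. The silenced libraries were thus all lower, although 2 of them were deeper than any control library. By the reads, tested with limma voom in an alternative chosen after seeing the data, CIITA changed by a log2 fold of -1.71 ± 0.27 (SE, adjusted p = 3.2e-06). DEXI, which lies opposite to the CIITA annotation, had 3.75 ± 0.166 TPM in control and 3.88 ± 0.300 TPM in silenced cells, a log2 fold of 0.04 ± 0.086 (adjusted p = 0.722).

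The chains of HLA-DR were close to absent. HLA-DRA had 6, 0 and 5 reads in the control libraries and 0, 0 and 2 in the PBRM1shRNA libraries, and HLA-DRB1 had 0, 4 and 1 against 0, 0 and 1. Too few libraries reached 3 reads for either gene to be tested, and a difference was not detectable at this depth.

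CD74, the invariant chain, had 46, 44 and 64 reads in control libraries and 7, 4 and 6 reads in PBRM1shRNA libraries. No library lay between the groups, and TPM fell from 0.910 ± 0.222 to 0.0782 ± 0.0112 (SD, n = 3). The log2 fold by reads was -3.28 ± 0.36 (adjusted p = 4.6e-09). With short noncoding RNAs removed and TPM rescaled, CD74 passed the filter only through its control libraries (3.1 to 4.5 against 0.29 to 0.38). Its log2 difference was then -1.91 ± 0.13 (adjusted p = 5.6e-08). A gene that passes in this way can hardly be other than lower, so this value is no further support.

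Of the subunits of HLA-DM only HLA-DMA passed by reads, and a difference between their folds was not tested. HLA-DMA had 18, 25 and 36 reads in control and 4, 6 and 9 reads in silenced libraries, a log2 fold of -2.25 ± 0.38 (adjusted p = 8.2e-06). For HLA-DMB the control libraries held 10, 2 and 2 reads and the silenced libraries 4, 3 and 1, a log2 fold of -0.67 ± 0.67 (adjusted p = 0.388). The HLA-DMB value rested on control library a, since without it the log2 fold was 0.05. BRD2, which runs opposite to HLA-DMA, had a log2 fold of -0.47 ± 0.087 (adjusted p = 3.3e-07).

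IFI30, the lysosomal thiol reductase, measured 39.3, 34.5 and 37.3 TPM in the control libraries and 4.72, 3.62 and 4.20 TPM in the PBRM1shRNA libraries. Every silenced library was far below every control library. The log2 fold on log2(TPM + 1) was -2.88 ± 0.088, and the adjusted p was at most 3.8e-06 over 15 alternatives. By reads (993, 1297 and 1267 against 203, 112 and 198) the log2 fold was -3.02 ± 0.079. Among leukocyte markers, PTPRC (58 against 13 reads over each group), CD40 (42 against 12) and CD68 fell as IFI30 did, and CD14 (22 against 57) rose. PIK3R2, the annotated neighbour upstream of IFI30, moved the other way, from 5.21 ± 0.310 to 7.08 ± 0.330 TPM.

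CTSS, the protease that trims CD74, had 24, 34 and 41 reads in control and 16, 3 and 8 reads in PBRM1shRNA libraries. TPM did not overlap between groups (0.192 to 0.256 against 0.0206 to 0.0791), and silenced library 1 was the highest of its group. The log2 fold by reads was -2.20 ± 0.36 (adjusted p = 4.4e-06). By reads, 5 of the 6 genes tested were called lower (IFI30, CD74, HLA-DMA, CTSS and CIITA), where 10.9% of the 15246 genes tested were, and each of the 5 had at least 3 reads in all 6 libraries. In bulk RNA such as this, fewer expressing cells and less RNA per cell cannot be told apart.

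**Figure D2:**
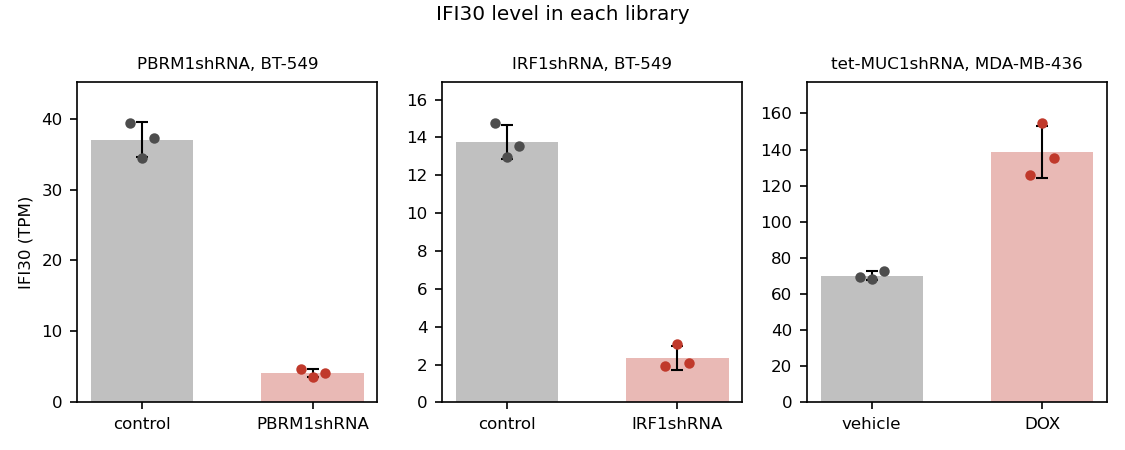
IFI30 in TPM in each library of the PBRM1, IRF1 and MUC1 experiments, each panel with its own axis starting at 0. Bars are group means, error bars SD (n = 3) and points libraries. Means fall from 37.0 to 4.18 and from 13.7 to 2.36 TPM in the BT-549 experiments and rise from 70.2 to 138.7 TPM with DOX in MDA-MB-436 cells.

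The second comparison asked the same of IRF1, a transcription factor of the IFN response, in BT-549 cells with its own control group. IFI30 decreased 5.83-fold, and CIITA, CD74, CTSS, HLA-DRA and HLA-DRB1 had lower TPM in all 3 IRF1shRNA libraries than in any control library. HLA-DMA and HLA-DMB overlapped between groups. IFI30 alone passed the filter and was called lower on log2(TPM + 1), as were 1.78% of the 9135 genes tested. Of the 7 genes under the filter, 5 had groups that did not overlap, all lower, against 19.6% of the 9474 genes under the filter with TPM above 0 in at least 3 libraries. IRF1shRNA library 2 was the shallowest of the 6, and raw reads are best read beside the depth-corrected values.

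CIITA had 272, 203 and 346 reads in control libraries 1, 2 and 3 and 80, 25 and 96 reads in IRF1shRNA libraries 1, 2 and 3. As RPM these are 4.12, 3.03 and 4.17 against 1.20, 0.848 and 1.11, so the shallow library was also the lowest after depth correction. The log2 fold by reads was -1.82 ± 0.18 (adjusted p = 3.3e-08). DEXI stood at 3.01 ± 0.393 TPM in control and 2.45 ± 0.0277 TPM in silenced cells (log2 fold -0.21 ± 0.13, adjusted p = 0.245).

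HLA-DRA was detected in every library of this deeper experiment, with 22, 22 and 21 reads in control and 6, 3 and 10 reads in IRF1shRNA libraries. Corrected for depth it was 0.253 to 0.333 RPM in control and 0.0900 to 0.116 in silenced libraries, without overlap. Its log2 fold by reads was -1.50 ± 0.38 (adjusted p = 0.00201). HLA-DRB1, with 5, 4 and 4 reads against 3, 1 and 0, gave a log2 fold of -1.61 ± 0.74 that did not pass (adjusted p = 0.0678). It lay between -2.13 and -0.40 when libraries were left out in turn, passing (adjusted p = 0.0451) only without IRF1shRNA library 1.

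CD74 had 88, 69 and 146 reads in control and 24, 9 and 38 reads in IRF1shRNA libraries, that is 0.273 ± 0.0664 against 0.0675 ± 0.00899 TPM. The groups did not overlap, and the log2 fold by reads was -1.86 ± 0.28 (adjusted p = 8.7e-06). For HLA-DMA, 37, 36 and 56 reads stood against 23, 14 and 53, and for HLA-DMB 6, 12 and 12 reads against 8, 4 and 2. Neither subunit of HLA-DM passed, with log2 folds of -0.35 ± 0.26 (adjusted p = 0.258) and -1.05 ± 0.56 (adjusted p = 0.119), and the spread of these few reads does not show that they were alike.

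IFI30 measured 14.7, 13.0 and 13.5 TPM in the control libraries and 1.92, 3.10 and 2.06 TPM in the IRF1shRNA libraries. IRF1shRNA library 2 was the highest of its group and still below every control library. The log2 fold was -2.15 ± 0.14 on log2(TPM + 1), with an adjusted p of at most 0.000957 over 15 alternatives, and -2.56 ± 0.093 by reads (2229, 2414 and 3331 against 398, 234 and 534). Among leukocyte markers, CSF1R (82 against 22 reads over each group) and CD68 fell by reads, and CD14 (225 against 384) and LYZ (2 against 11) rose. LYZ met the minimum of reads only through its silenced libraries, so it could hardly do other than rise. PIK3R2 was at 3.30 ± 0.189 TPM in control and 4.14 ± 0.254 TPM in silenced cells.

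CTSS had 118, 102 and 117 reads in control and 59, 25 and 74 reads in IRF1shRNA libraries. After depth correction the silenced libraries were close together, at 0.885, 0.848 and 0.856 RPM against 1.41 to 1.79 in control. The log2 fold by reads was -0.88 ± 0.17 (adjusted p = 0.000198), short of the fold needed for a call. By reads 8 genes were tested, 4 were called lower (IFI30, CD74, CIITA and HLA-DRA), where 5.49% of the 16854 genes tested were, and CTSS was lower by adjusted p only, where 29.7% were lower.

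**Figure D3:**
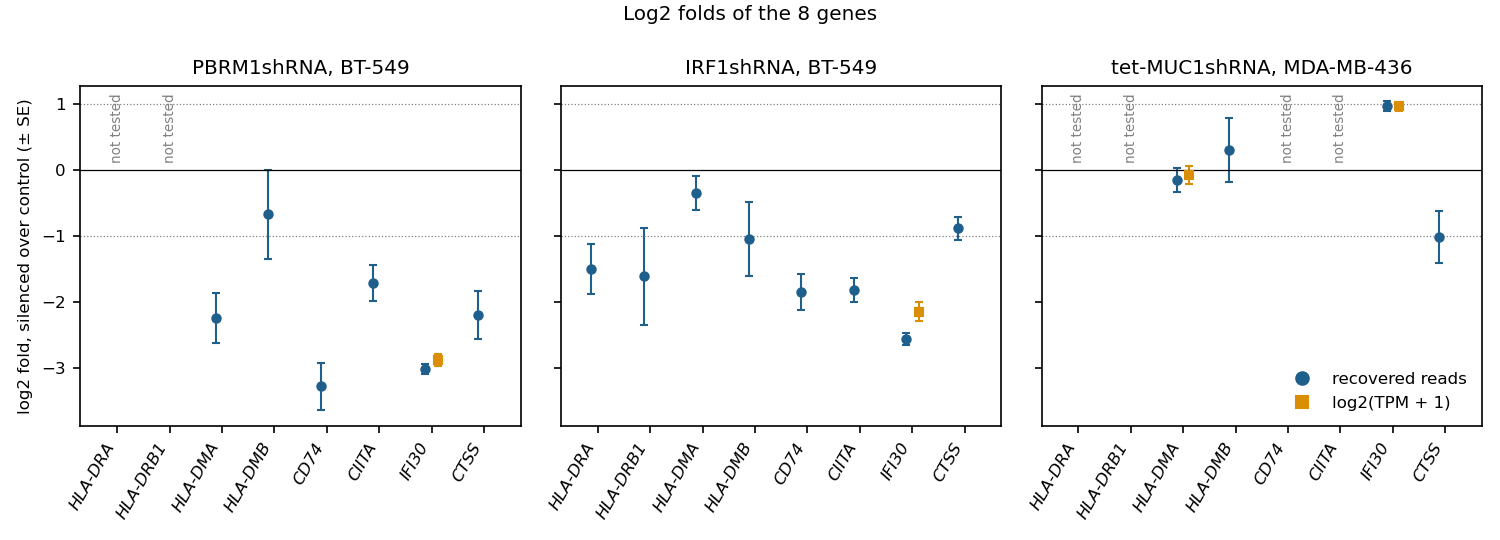
Log2 folds of silenced over control cells for the 8 genes, with SE, in the PBRM1, IRF1 and MUC1 experiments (n = 3 against 3). Circles are from recovered reads, squares from log2(TPM + 1) for genes that passed its filter, dotted lines mark log2 folds of 1 and -1, and genes with neither value are marked as not tested. Folds by reads are below 0 for all 6 and all 8 genes tested in the BT-549 experiments, where HLA-DMB in the first and HLA-DRB1, HLA-DMA and HLA-DMB in the second did not pass, and lie on both sides of 0 in MDA-MB-436 cells.

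The third comparison asked how the genes change in MDA-MB-436 cells when the MUC1 hairpin is induced by DOX. IFI30 increased 1.97-fold, CTSS had fewer reads, and HLA-DMA and HLA-DMB did not differ beyond their spread. CIITA, HLA-DRA and HLA-DRB1 had no reads in either group and CD74 a single one, so no fold can be given. IFI30 and HLA-DMA passed the filter, and with limma 0 of the 2 were called, where 1.34% of the 13229 genes tested were called higher and 1.35% lower. At an unadjusted p under 0.05 there was 1, IFI30, which also passed the adjusted p, as did 27% of tested genes in the higher direction, and by reads 1 gene, CTSS, was called. Of the 6 genes under the filter, CTSS was the 1 whose groups did not overlap in the lower direction, against 15.5% of the 3600 genes under the filter with TPM above 0 in at least 3 libraries.

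IFI30 measured 69.5, 68.2 and 73.0 TPM in vehicle-treated libraries 1, 2 and 3 and 126.1, 154.5 and 135.5 TPM in DOX-treated libraries 1, 2 and 3. All DOX libraries were above all vehicle libraries. The log2 fold was 0.97 ± 0.068 on log2(TPM + 1) (adjusted p = 7.8e-06) and 0.96 ± 0.074 by reads (adjusted p = 1.1e-18), just under the fold of 1 needed for a call. Without DOX library 1 it was 1.03 on log2(TPM + 1) and 1.04 by reads, and without vehicle library 3 it was 1.01 by reads, and IFI30 was then called. Some leukocyte markers rose beside IFI30 and others fell. CD14 went from 4.34 ± 0.377 to 9.03 ± 1.91 TPM (log2 fold 0.89 ± 0.14, adjusted p = 0.00063), CSF1R from 5 to 52 reads over the 3 libraries (log2 fold by reads 3.51 ± 0.62, adjusted p = 2.04e-06) and PTPRC, a marker of all leukocytes, from 10 to 32 reads (1.56 ± 0.50, adjusted p = 0.00738). CSF1R met the minimum of reads through its DOX libraries, which favours a rise. ITGAX (23 to 7 reads) and ITGAM (19 to 9 reads), also myeloid markers, fell, and CD68 had a log2 fold of -0.08 ± 0.044 (adjusted p = 0.141). PIK3R2 was at 41.2 ± 2.34 TPM with vehicle and 42.4 ± 2.28 TPM with DOX.

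CTSS had 13, 16 and 16 reads with vehicle and 5, 10 and 8 reads with DOX. TPM was 0.689, 0.773 and 0.697 against 0.207, 0.442 and 0.496, lowest in DOX library 1. The log2 fold by reads was -1.02 ± 0.40 (adjusted p = 0.0259), and CTSS was the 1 of 4 genes tested that was called lower, where 4.11% of the 15074 genes tested were. This call was not stable. It ended with a replicate block (log2 fold -0.91, adjusted p = 0.0564), without vehicle library 2 (-0.98, adjusted p = 0.0551) and without DOX library 1 (-0.61, adjusted p = 0.25).

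HLA-DMA had 55, 50 and 56 reads with vehicle and 58, 48 and 40 reads with DOX, that is 1.14 ± 0.125 and 1.03 ± 0.0828 TPM. Its log2 fold on log2(TPM + 1) was -0.08 ± 0.14 (adjusted p = 0.68), with a sign that changed under quantile scaling (0.0019). HLA-DMB had 3, 8 and 6 reads against 10, 7 and 4, a log2 fold by reads of 0.31 ± 0.49 (adjusted p = 0.626). Neither difference exceeded the spread between libraries.

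IFI30 was the 1 gene of the 8 that passed the TPM filter in all 3 experiments, with log2 folds of -2.88, -2.15 and 0.97. Among the 8893 genes tested in all 3, the nearest by Euclidean distance over the 3 folds was DTX3L (distance 0.573), an E3 ubiquitin ligase, with -3.18, -1.83 and 0.60. Its partner PARP9 (0.743) had -2.58, -1.49 and 0.78, and TXNIP (0.981), a thioredoxin-binding protein, had -2.06, -1.62 and 1.10. The distances rest on 3 values each and are a description.

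Other class II chains were also scarce. Of 11 listed, 9 were in the tables and none reached the TPM filter in any experiment. HLA-DOB, the beta chain of HLA-DO, which restrains HLA-DM, was the best covered, with 249 reads over the 3 control and 128 over the 3 PBRM1shRNA libraries (log2 fold by reads -1.20 ± 0.18, adjusted p = 1.1e-06). In the IRF1 experiment it had 712 against 301 reads (-1.04 ± 0.14, adjusted p = 3.2e-06), and in MDA-MB-436 cells 8 against 17 (0.96 ± 0.57, adjusted p = 0.158). HLA-DPA1, an HLA-DP chain, had 21 against 6 reads in the PBRM1 experiment (-1.75 ± 0.56, adjusted p = 0.00759), 50 against 21 in the IRF1 experiment (-1.05 ± 0.42, adjusted p = 0.0364) and 0 reads in MDA-MB-436 cells.

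Among the factors that bind class II promoters or work with CIITA, the largest fold was that of NLRC5, a relative of CIITA that acts on MHC class I genes, after PBRM1 silencing. In the PBRM1 experiment 4 of 12 tested fell and 2 rose (median log2 fold -0.13, against -0.05 over all tested genes, and 0.03 against 0.05 under quantile scaling), while 34.8% of all genes fell and 24.6% rose. NLRC5, 1 of the 4, fell from 2.20 ± 0.190 to 0.148 ± 0.0165 TPM. It passed the filter only through its control libraries, which favours a fall. By reads it had 1683 in control against 145 in silenced libraries, a log2 fold of -3.76 ± 0.14. The histone acetyltransferases CREBBP and EP300 had log2 folds of -0.41 and -0.38. In the IRF1 experiment 1 of 11 fell and 2 rose (median -0.07 against -0.06, and 0.03 against 0.03 under quantile scaling), where 18.5% of all genes fell and 5.76% rose. The one that fell was NFYC (-0.89), a subunit of the factor that binds the Y box, while its partner NFYA (0.48) and RFXAP (0.29), a subunit of the X box factor, rose. In MDA-MB-436 cells 4 of 12 fell and 3 rose (median -0.05 against 0.02), where 23.4% of all genes fell and 27% rose. RFX5, another subunit of that X box factor, fell (-0.61), and RFXAP (0.85) and NFYC (0.36) rose.

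Genes upstream of CIITA in the IFN-gamma pathway included IRF1 and IRF2. In the PBRM1 experiment 5 of 8 tested fell and 1 rose (median log2 fold -0.45 against -0.05 over all tested genes), where 34.8% of all genes fell and 24.6% rose. These 2 transcription factors fell, with log2 folds of -1.59 and -0.68. After IRF1 silencing 3 of 8 fell (median -0.27 against -0.06), where 18.5% of all genes fell, among them IRF1 itself, the target of the hairpin (-1.40), and IFNGR2, a receptor chain (-0.37). In MDA-MB-436 cells 2 of 9 fell and 2 rose, where 23.4% of all genes fell and 27% rose, with IFNGR1, the other receptor chain, at -0.71 and JAK1, its kinase, at 0.31.

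Other lysosomal proteases differed between the experiments in their counts, a difference that was not tested. In the PBRM1 experiment 10 of 14 tested fell and 2 rose (median log2 fold -0.61 against -0.05 over all tested genes, of which 34.8% fell and 24.6% rose), and CTSF (-1.43), CTSH (-1.37) and CTSO (-0.81), cysteine cathepsins like CTSS, had the largest folds. CTSH passed the filter only through its control libraries (3.35 ± 0.298 against 0.685 ± 0.0447 TPM), which favours a fall. By reads it had 768 in control against 197 in silenced libraries, a log2 fold of -2.18 ± 0.13. After IRF1 silencing 4 of 12 fell and 2 rose (median -0.30 against -0.06), where 18.5% of all genes fell and 5.76% rose. The aminopeptidase TPP1 (-0.68) and CTSZ (-0.62) fell and SPPL2A, the protease that clears the last CD74 fragment from the membrane, rose (0.48). Under quantile scaling 6 of 12 fell and 4 rose (median -0.15 against 0.03), where 2781 of 9135 genes fell and 3626 rose. By reads 8 of 15 fell and 6 rose (median -0.21 against 0.01), where 5007 of 16854 genes fell and 4805 rose. In MDA-MB-436 cells 2 of 13 fell and 3 rose (median -0.04 against 0.02), where 23.4% and 27% of all genes did, among them CTSC (0.71), CTSB (-0.53) and LGMN (0.41), a lysosomal endopeptidase.

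Of 7 inhibitors of these proteases 2 were tested. In each BT-549 experiment 2 of 2 fell, where 34.8% (PBRM1) and 18.5% (IRF1) of all tested genes fell. CST3, cystatin C, a strong inhibitor of CTSS, fell from 25.3 ± 1.23 to 4.78 ± 0.152 TPM in the PBRM1 experiment and from 12.9 ± 0.937 to 8.27 ± 0.0283 TPM in the IRF1 experiment, while CSTB, an intracellular inhibitor, had log2 folds of -0.56 and -0.94. In MDA-MB-436 cells CST3 rose slightly (0.14 ± 0.042, adjusted p = 0.0175), where 27% of all genes rose. Under quantile scaling 0 of the 2 inhibitors tested rose, where 3374 of 13229 genes did.

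Lysosomal membrane and biogenesis genes fell in 6 of 14 and rose in 2 of 14 in the PBRM1 experiment (median log2 fold -0.12 against -0.05 over all tested genes, of which 34.8% fell and 24.6% rose), led by LAMP3 (-1.54), a lysosomal membrane protein of mature dendritic cells, NPC1 (-1.38), a cholesterol transporter, and TFE3 (-0.60), a transcription factor of lysosomal genes. By reads 8 of 16 fell and 6 rose (median -0.07 against -0.02), where 5174 of all 15246 genes tested fell and 5069 rose. In the IRF1 experiment 5 of 12 fell (median -0.22 against -0.06), where 18.5% of all genes fell, led by NPC2 (-1.07), the soluble partner of NPC1, and SCARB2 (-0.58). In MDA-MB-436 cells 5 of 14 rose and 4 fell, where 27% of all genes rose and 23.4% fell, with MITF, a relative of TFE3, at 0.94.

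Genes of class II and CD74 traffic and partners of CD74 rose in 4 of 6 in the PBRM1 experiment (median log2 fold 0.34 against -0.05 over all tested genes, of which 24.6% rose). These were DDT (0.51) and MIF (0.31), which are ligands of CD74, AP2M1 (0.40), an endocytic adaptor, and CD44 (0.37), the signalling partner of CD74. Under quantile scaling 5 of 6 rose and 1 fell (median 0.18 against 0.05), where 4558 of 10639 genes rose. By reads 5 of 9 rose and 2 fell (median 0.17 against -0.02), where 5069 of 15246 genes rose and 5174 fell. MARCH1, 1 of the 2 that fell, had 29 reads in control against 2 in silenced libraries. It met the minimum of reads only through its control libraries. In the IRF1 experiment 3 of 6 fell (median -0.35 against -0.06), where 18.5% of all genes fell, namely RAB7A (-1.15), a late endosome GTPase, MIF (-0.50) and DDT (-0.37). In MDA-MB-436 cells 2 of 9 fell and 2 rose, where 23.4% and 27% of all genes did, with AP1M1, a sorting adaptor, at -0.55 and MARCH1, a ubiquitin ligase that removes class II molecules from the surface, at 0.52.

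**Figure D4:**
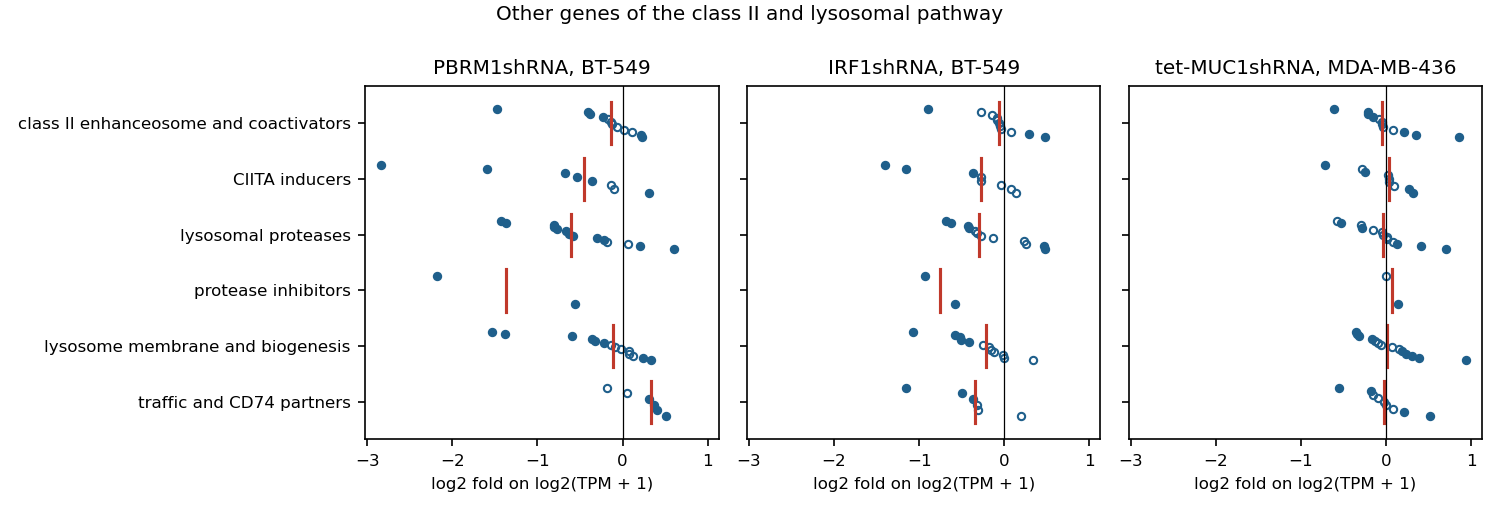
Log2 folds on log2(TPM + 1) for the tested genes of 6 lists around the class II and lysosomal pathway, in the PBRM1, IRF1 and MUC1 experiments on 1 shared axis. Each point is a gene, filled where the adjusted p was under 0.05, and red bars are list medians. The lysosomal proteases have medians of -0.61 and -0.30 in the BT-549 experiments and -0.04 in MDA-MB-436 cells.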

How the data were processed

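Libraries were prepared from total RNA with a stranded kit that selects mRNA. The authors used STAR, GRCh38 and DESeq2, per the submitters' processing notes. Tool versions, annotation, counter and strand setting were not given in the sources used here. Deposited were 3 tables of TPM, each column of which sums to 1000000, and 3 tables of test results. From the latter only the mean normalized count per gene (a signal averaged over 6 libraries by the authors) was used. Their columns of fold changes and p-values were not used. In the PBRM1 table the control columns name the line but no hairpin. They match no single sample label and were assigned to their group only, as a, b and c.

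Log2(TPM + 1) was tested with limma 3.58.1 in R 4.3.3 (lmFit, eBayes with trend, two-sided, Benjamini-Hochberg adjustment over all genes tested), for genes with TPM of at least 1 in at least 3 of 6 libraries, separately in each table. Fold changes on this scale understate changes of low genes. Rose and fell mean an adjusted p under 0.05, and called means that the log2 fold was also beyond 1 or -1. For BT-549 cells limma estimated infinite prior degrees of freedom, so that SE there follows the level and not each gene's own spread, and for the MUC1 experiment 4.98. P-values measure the spread between triplicate cultures, which may be technical.

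Reads were recovered by scaling each gene's TPM profile to the authors' mean normalized count and to a size factor read from the steps of low values. Of values under 20 reads, at least 99.73% per library lay within 0.05 of a whole number. Genes with at least 3 reads in at least 3 libraries were tested with limma voom, with the recovered size factors as library sizes, as an alternative chosen after seeing the data. Deviations of same-numbered PBRM1 libraries, by the last number of the column names, correlated at 0.455, 0.309 and 0.290. Those of differently numbered PBRM1 libraries lay between -0.377 and 0.114. In the IRF1 experiment, however, control library 1 and silenced library 2 correlated at 0.294. Such values do not settle whether the numbers pair the samples, and the main fits did not use the numbers. What the number stands for is not stated.

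The genes named are the 8 genes of the report, the 3 hairpin targets, in each list up to 3 tested genes with the largest absolute log2 fold past the adjusted p (1 such gene is not reported here), and the 3 genes nearest to IFI30. Further genes (DEXI, BRD2, PIK3R2, the leukocyte markers, ESR1, PGR, HLA-DOB, HLA-DPA1, and MIF and MARCH1 after PBRM1 silencing) were named after their values were seen. These 8 genes and the lists were chosen with earlier results of these data known.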

Additional observations from a re-analysis of the deposited data

How the results depend on the processing

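On log2(TPM + 1), IFI30 kept its direction and its side of adjusted p 0.05 in 15 of 15 alternatives in each experiment. Genes called numbered 519, 168 and 355 (PBRM1, IRF1 and MUC1). They moved to 804, 350 and 622 with a pseudocount of 0.1, to 323, 97 and 211 with a mean TPM of at least 5, to 1002 and 414 in BT-549 with short noncoding RNAs removed, to 2113, 1680 and 999 with recovered reads, and to 2158, 1140 and 981 with short noncoding RNAs removed, a pseudocount of 0.1 and no TPM minimum, a setting chosen after seeing the data. The split of higher and lower calls in the IRF1 experiment was 5 and 163, but 82 and 332 with short noncoding RNAs removed, 755 and 925 by reads and 461 and 679 in the last setting. In the PBRM1 experiment, 2620 genes rose and 3707 fell, against 4558 and 3421 with quantile scaling and 2860 and 6407 with short noncoding RNAs removed. In the IRF1 experiment, 526 rose and 1693 fell, against 3626 and 2781, 4499 and 3741, and 4805 and 5007 by reads. The median log2 fold of all tested genes in the PBRM1 experiment was -0.05, -0.16 with short noncoding RNAs removed and 0.05 with quantile scaling.

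Of the 8 genes, 1, 1 and 0 were called. This became 2 in the PBRM1 experiment with short noncoding RNAs removed, 5, 4 and 1 by reads, and 5 and 3 in the BT-549 experiments in the last setting. CD74, gained with short noncoding RNAs removed, passed the filter there only through its control libraries. Leaving out 1 library gave 1 to 1, 1 to 1 and 0 to 1 genes on TPM (genes called 511 to 546, 141 to 197 and 341 to 370) and 5 to 5, 4 to 5 and 0 to 2 by reads (2011 to 2073, 1593 to 1663 and 933 to 966). Of 24 pairs of gene and table, 20 were under the TPM filter, 3 with no filter, 6 by reads and 4 in the last setting. The direction turned for HLA-DMB by reads in the PBRM1 experiment, from -0.67 to 0.0511 without control a (-1.09 to 0.0511 with libraries left out in turn), and for HLA-DMA, from -0.08 to 0.0019, in MDA-MB-436 cells with quantile scaling. The causes were not tested.

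With the replicate block the count of the 8 genes called by reads in MDA-MB-436 cells went from 1 to 0, as CTSS was lost (log2 fold -0.91, adjusted p = 0.0564), and no other call among the 8 genes changed. Same-numbered libraries correlated at -0.209, 0.085 and 0.228 (IRF1) and 0.053, -0.036 and 0.006 (MUC1) and share only a number. Depth limits HLA-DRA and HLA-DRB1 in the PBRM1 experiment. In MDA-MB-436 cells too few reads, or none, fell on CIITA, HLA-DRA, HLA-DRB1 and CD74 for a fold to be given.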
